A study of Rattus norvegicus with 13 samples.

Results

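The pro-apoptotic members of the Bcl-2 family on this array were Bad, Bik, Bid, Hrk, Bcl2l11, Bak1, Bok and Bnip3, 8 of the 96 gene probes. They were picked out by symbol, from 11 symbols of the family. The rule used no measured value, but the choice was made with earlier results of these data known. Pmaip1, Bbc3 and Bnip3l were also among the 11 symbols and were not analysed here. Septal coronary arteries from rats of the inbred strain F344, much used to study ageing, were the source of the total RNA, at 26 months (aged, 6 arrays) and at 3 months (young, 7 arrays). The labels record no treatment, sex or pooling of animals in either group. For the 26-month vessels they add that TUNEL staining and DNA fragmentation had shown increased endothelial apoptosis.

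Proteins of the Bcl-2 family decide whether the outer membrane of the mitochondrion stays closed. Multidomain killers such as Bak1 and Bok can form the pores through which cytochrome c leaves, and BH3-only proteins such as Bad, Bik, Bid, Hrk and Bcl2l11 carry the death signal to them or neutralise the guardians Bcl2, Bcl2l1 and Mcl1. Bnip3, an atypical relative known for mitophagy and the response to low oxygen, is given apart. Many BH3-only proteins are controlled by phosphorylation, cleavage or location, none of which an RNA array measures.

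Values were deposited as ratios to beta-actin, measured on that array, with 2 decimals, and some cells of the table are blank without a stated reason. Arrays held 52 to 80 gene probes with a value and 3 to 7 of the 8 family members. Young replicates 1 and 2 stood lowest in level over the 15 gene probes measured on every array, with mean log2 ratios of -2.50 and -1.76 against -1.08 to 0.15 on the other 11 arrays. The reference genes Gapdh (0.732 ± 0.073 aged and 0.654 ± 0.141 young) and Rpl13a (0.227 ± 0.036 aged and 0.169 ± 0.074 young) did not pass an exact permutation test (SD, n = 6 and 7, p = 0.22 and p = 0.084, two-sided). Of 26 markers of endothelium, smooth muscle, cardiomyocytes, fibroblasts and leukocytes, 1 (Cd40) was on the array, so the tissue label and the cell makeup were not checked. In such bulk RNA, fewer cells of a type and less RNA per cell cannot be told apart.

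The first question was where the family members sat on the arrays. Spot brightness depends on the probe as well as on the transcript, so these ranks describe the spots and give no order of transcript abundance. Bik, a BH3-only protein of the endoplasmic reticulum, was the bright spot of the family. It lay between the 3rd and the 8th brightest of the measured gene probes on each of the 13 arrays, at the 87.5th to 97.3rd percentile. The multidomain probes Bak1 and Bok came next, at mean percentiles of 64.2 ± 26.7 (SD, n = 6) and 66.2 ± 5.9 (n = 4) on aged arrays and 69.7 ± 8.3 (n = 5) and 57.3 ± 7.6 (n = 4) on young arrays. The remaining BH3-only probes ranked lower. By mean log2 ratio over the measured arrays, Bcl2l11 and Bad were near the middle of the 96 gene probes (48th and 54th). Bid and Hrk were dim (82nd and 92nd). Bad averaged 28.7 ± 22.0 on aged and 45.4 ± 9.3 on young arrays (SD, n = 4 and 5), Bcl2l11 averaged 35.9 ± 20.0 and 42.3 ± 26.4 (n = 5 and 3), Bid averaged 26.6 ± 15.8 and 13.8 ± 5.8 (n = 3 and 3), and Hrk averaged 14.3 ± 9.7 and 16.3 ± 7.9 (n = 3 and 5). Bnip3 averaged 25.7 ± 25.1 and 27.9 ± 21.7 (n = 5 and 4).

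By geometric mean over the measured arrays the order was Bik (1.25), Bak1 (0.202), Bok (0.130), Bcl2l11 (0.071), Bad (0.063), Bnip3 (0.045), Bid (0.040) and Hrk (0.030). Only the step from Bik to Bak1 left the ranges of neighbouring probes mostly apart, since Bik ran from 0.27 to 2.68 and Bak1 from 0.08 to 0.51. From Bak1 down, each pair of neighbours overlapped in range. The median over the 5 BH3-only probes was 0.063, the value of Bad, and over the 2 multidomain probes 0.162, against 0.070 over the 96 gene probes. Among the BH3-only probes other than Bik, the highest geometric mean was 0.071. A rank does not move with the beta-actin denominator, and no member passed a test of its rank between the ages. Among measured probes, the largest differences in mean percentile were those of Bad, 16.6 points lower in aged arteries (exact permutation p = 0.17), and Bid, 12.9 points higher (exact permutation p = 0.40). With blanks ranked below every value, Bad was still lower, Bid differed by 3.68 points, and the differences of Bak1, Hrk and Bcl2l11 were 12.3, -11.3 and 10.6 points. In both rankings each member had an adjusted p of 1 over the 70 probes tested, and 1.43% of the 70 probes passed in the first. At an unadjusted p under 0.05 there were, in the first, 0 of 8 members and 7.14% of the probes.

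**Figure D1:**
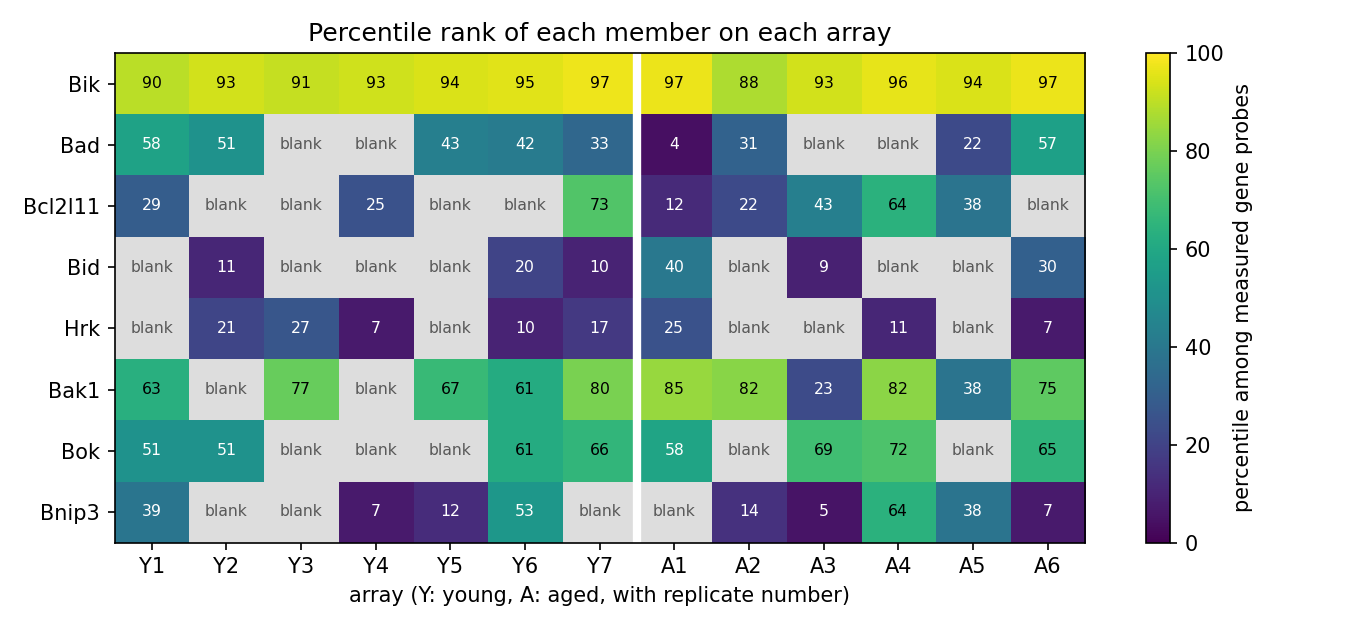
Percentile rank of each member (rows) among the gene probes with a value on each array (columns, Y1 to Y7 young and A1 to A6 aged), on a colour scale from 0 to 100, with blank cells in grey. Bik stays at or above the 87.5th percentile on the 13 arrays, while the other 7 members have 2 to 7 blank arrays each.

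Detection was the second measure. Blank cells made up 32 of the 104 cells of the family (30.8%), against 426 of 1248 over the gene probes (34.1%). Bik had a value on all 13 arrays, which 15.6% of the 96 gene probes did. The 4 other BH3-only probes had values in 15 of 24 aged cells (62.5%) and 16 of 28 young cells (57.1%). The multidomain probes had values in 10 of 12 aged cells (83.3%) and 9 of 14 young cells (64.3%). Over the 96 gene probes these shares were 69.3% and 62.9%. Bak1 was measured on 6 of 6 aged and 5 of 7 young arrays, Bok on 4 of 6 and 4 of 7, Bad on 4 of 6 and 5 of 7, and Bid on 3 of 6 and 3 of 7. Hrk was measured on 3 of 6 aged and 5 of 7 young arrays, Bnip3 on 5 of 6 and 4 of 7, and Bcl2l11 on 5 of 6 and 3 of 7. Of the 8 members 5 had a value on a larger share of aged than of young arrays, as did 49% of the 96 gene probes. The widest gap, that of Bcl2l11, was 40.5 percentage points (Fisher's exact test, two-sided, p = 0.27, adjusted p = 1 over 96 probes). No member passed (0 of 8, also at an unadjusted p under 0.05), and 0% of the 96 probes did, with 2 of the 96 under 0.05 before adjustment.

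The comparison of 26-month with 3-month arteries asked whether these killer genes differ in expression with age. None of the 8 members passed limma's test, in which 1 of the 70 tested probes did (1.43%, the cytokine gene Tnf). The counts at an unadjusted p under 0.05 were 0 of 8 members by limma, against 5.71% of the probes, and 0 of 8 by an exact permutation test, against 8.57% of the probes (0% after adjustment). In the exact test 1 split of the arrays counted for p = 0.00058 in Bik, 0.0022 in Bak1 and 0.0079 to 0.05 in the other members. After adjustment over 70 probes, members other than Bik thus had little room to pass, whatever their values. Bid could not pass even before adjustment. The same limits hold for the rank test among measured probes. In every member the measured values of the age groups overlapped or met, whereas in 2.86% of the 70 probes they did not. All 8 members had the 3 values in each group that the test required.

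**Figure D2:**
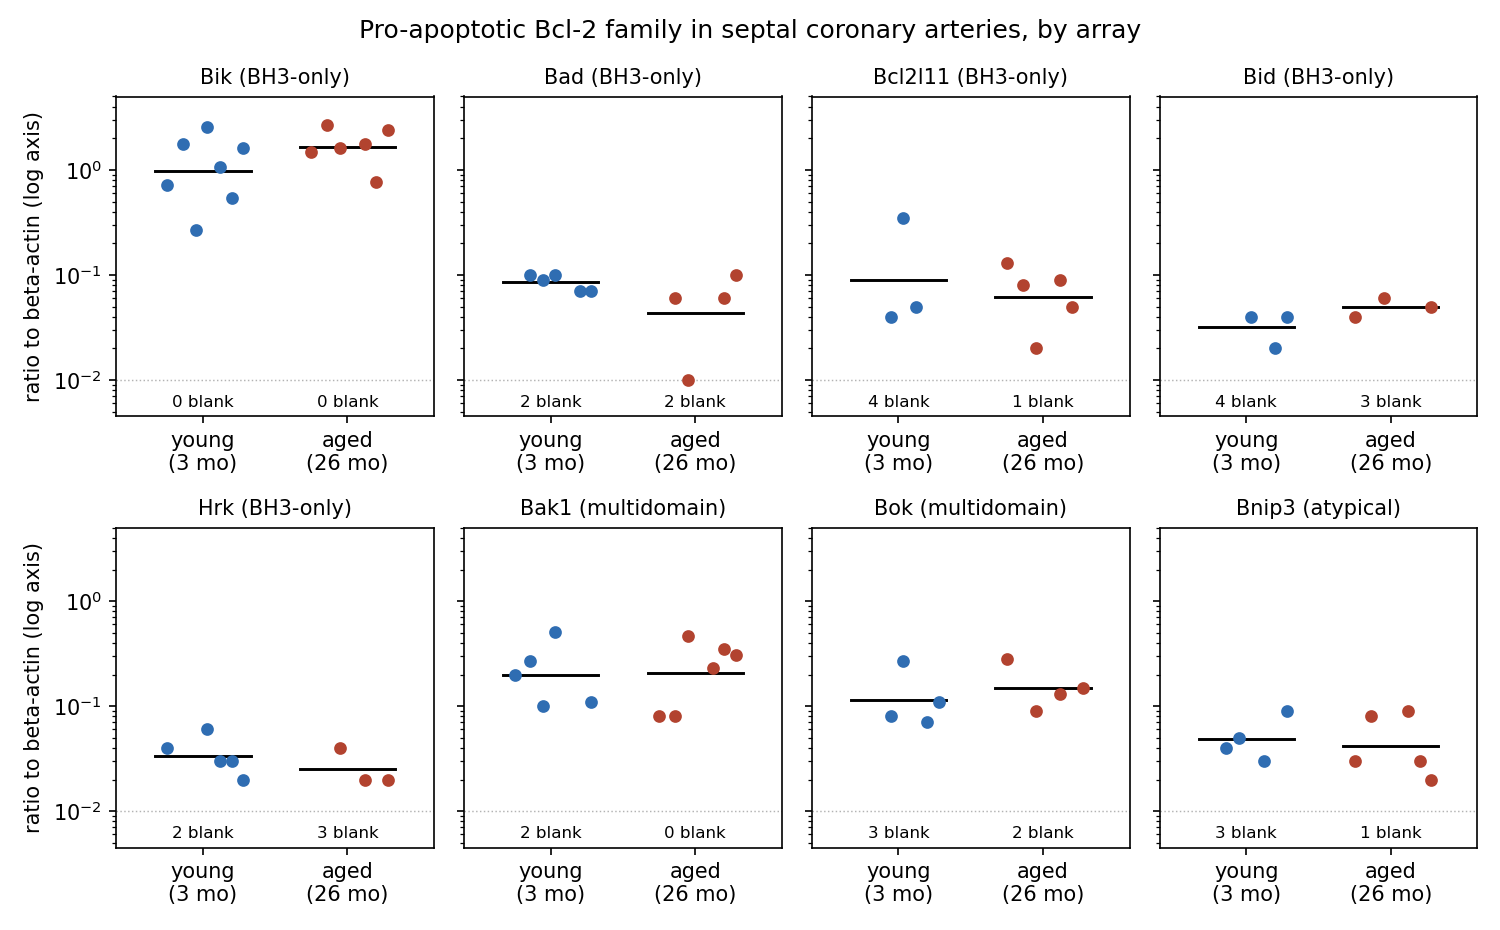
Ratio to beta-actin (log axis) of each member on each array, 7 young and 6 aged, with the geometric mean of the measured arrays as a black line, the smallest deposited ratio (0.01) as a dotted line and the number of blank arrays at the bottom. Points are spread sideways only to keep them apart, and the age groups overlap in each panel or, for Bid, meet at 0.04.

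Among the BH3-only members, Bik had the highest values in both groups. On aged arrays its ratio was lowest at 0.77, 1.69 in the median and highest at 2.68. On young arrays the same values were 0.27, 1.06 and 2.58, the last on young replicate 7. The young arrays reached nearly as high as the aged ones but also lower, over a 9.56-fold range against 3.48-fold. The mean ratios were 1.79 ± 0.69 aged and 1.22 ± 0.81 young (SD, n = 6 and 7), a 1.71-fold higher geometric mean in aged arteries (log2 difference of 0.78 with SE 0.54, 95% interval -0.33 to 1.88, adjusted p = 0.72 by limma). Without young replicates 1 and 2 the log2 difference was 0.24.

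Bad, which binds and neutralises Bcl2l1 when survival signalling is low, had ratios of 0.01, 0.06, 0.06 and 0.10 on aged replicates 1, 2, 5 and 6. On young replicates 1, 2, 5, 6 and 7 they were 0.09, 0.07, 0.10, 0.07 and 0.10. The aged values other than that of replicate 6 lay below the lowest young value, and replicate 6 matched the highest. The means were 0.058 ± 0.037 aged and 0.086 ± 0.015 young (SD, n = 4 and 5), with a log2 difference of -0.96 (SE 0.66, 95% interval -2.33 to 0.41, adjusted p = 0.72 by limma, exact permutation p = 0.087). Much of its size came with aged replicate 1, at the smallest ratio the table can hold above 0. Without that array the log2 difference was -0.26. The young values were close together, within a 1.43-fold range that spans 3 rounding steps of 0.01.

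Bcl2l11, also called Bim, a potent activator of the mitochondrial pathway, had ratios of 0.02, 0.05, 0.13, 0.09 and 0.08 on aged replicates 1 to 5. On young replicates 1, 4 and 7 they were 0.04, 0.05 and 0.35. Young replicate 7 stood alone above the aged values, and the other young values fell inside the aged range. Means of 0.074 ± 0.042 and 0.147 ± 0.176 (SD, n = 5 and 3) gave a log2 difference of -0.51 (SE 0.80, 95% interval -2.18 to 1.16, adjusted p = 0.91 by limma). The log2 difference was -0.10 without aged replicate 1 and -0.78 without aged replicate 3. Without young replicate 1, 4 or 7 too few young values remained for the fit. How far the negative sign rests on the 0.35 of young replicate 7 was therefore not tested. The direction turned, to 0.85, when 0.01 stood in for each blank.

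Bid, which links death receptors to mitochondria once caspase 8 has cut it, had ratios of 0.06, 0.04 and 0.05 on aged replicates 1, 3 and 6. On young replicates 2, 6 and 7 they were 0.02, 0.04 and 0.04. The groups met at 0.04, and the difference of their means (0.050 ± 0.010 and 0.033 ± 0.012, SD, n = 3 each) was smaller than 2 rounding steps. Its log2 difference was 0.64 (SE 0.73, 95% interval -0.90 to 2.17, adjusted p = 0.86 by limma), and an exact permutation test on 3 against 3 arrays cannot go below p = 0.10. Hrk, best known from dying neurons, ranged from 0.02 to 0.04 on 3 aged arrays and from 0.02 to 0.06 on 5 young ones. Its log2 difference was -0.42 (SE 0.64, 95% interval -1.76 to 0.93, adjusted p = 0.91 by limma), and it was -0.21 without young replicate 7 and -0.61 without young replicate 6.

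Of the multidomain members, Bak1 sits in the outer mitochondrial membrane and oligomerises there in apoptosis. On aged arrays its ratio was lowest at 0.08, 0.27 in the median and highest at 0.47. On young replicates 1, 3, 5, 6 and 7 it was 0.10, 0.20, 0.27, 0.11 and 0.51, with young replicates 2 and 4 blank. The groups covered almost the same range, with means of 0.253 ± 0.155 and 0.238 ± 0.167 (SD, n = 6 and 5). The log2 difference was 0.05 (SE 0.61, 95% interval -1.21 to 1.32, adjusted p = 0.98 by limma), an interval that includes more than a 2-fold change in either direction. Its sign turned when any of 5 arrays was left out, namely replicates 1, 2 and 6 of the aged and replicates 1 and 6 of the young group (-0.06 to -0.19), and with the 2 young blanks set to 0.01 it was 1.28. The lowest aged ratio, 0.08, occurred on aged replicates 3 and 5. There Bak1 ranked at the 22.9th and 38.4th percentile, against the 61.4th to 84.5th on the other 9 arrays that measured it.

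Bok, which can open mitochondria without Bak1, had ratios of 0.09, 0.28, 0.13 and 0.15 on aged replicates 1, 3, 4 and 6. On young replicates 1, 2, 6 and 7 they were 0.08, 0.07, 0.11 and 0.27. Each group held a value near 0.3 and the rest at or below 0.15. The means were 0.163 ± 0.082 and 0.133 ± 0.093 (SD, n = 4 each), with a log2 difference of 0.39 (SE 0.66, 95% interval -0.98 to 1.76, adjusted p = 0.91 by limma). With 1 array left out it ran from 0.09 (aged replicate 3) to 0.81 (young replicate 7). Bnip3 ranged from 0.02 to 0.09 on 5 aged arrays and from 0.03 to 0.09 on 4 young ones. Its log2 difference was -0.20 (SE 0.63, 95% interval -1.52 to 1.11, adjusted p = 0.96 by limma). It was 0.07 without aged replicate 6 and 0.10 without young replicate 6.

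By class, 2 of the 5 BH3-only members (Bik and Bid) and both multidomain members stood higher in the aged group by mean log2 ratio, with median differences of -0.42 and 0.22. Bnip3 was lower. In all 4 of 8 members were higher, against 57.1% of the 70 probes tested, whose median was 0.06. The counts stayed at 2 of 5 and 2 of 2 with array-median centring and with quantile normalization, and were 3 of 5 and 2 of 2 with blanks at 0.01. With each array centred on its reference genes, 2 of 5 BH3-only and 1 of 2 multidomain members were higher, and 29 of the 70 probes. Centred instead on the 15 probes with a value everywhere, 1 of 5 (Bid) and 0 of 2 were higher, and 13 of the 70 probes, with medians of -0.95, -0.56 and -0.69. Bad, Bcl2l11, Hrk and the atypical Bnip3 were lower and Bid was higher under each of the 5 scalings. These were as deposited, centred on reference genes, on the 15 probes or on the array median, and quantile normalized.

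**Figure D3:**
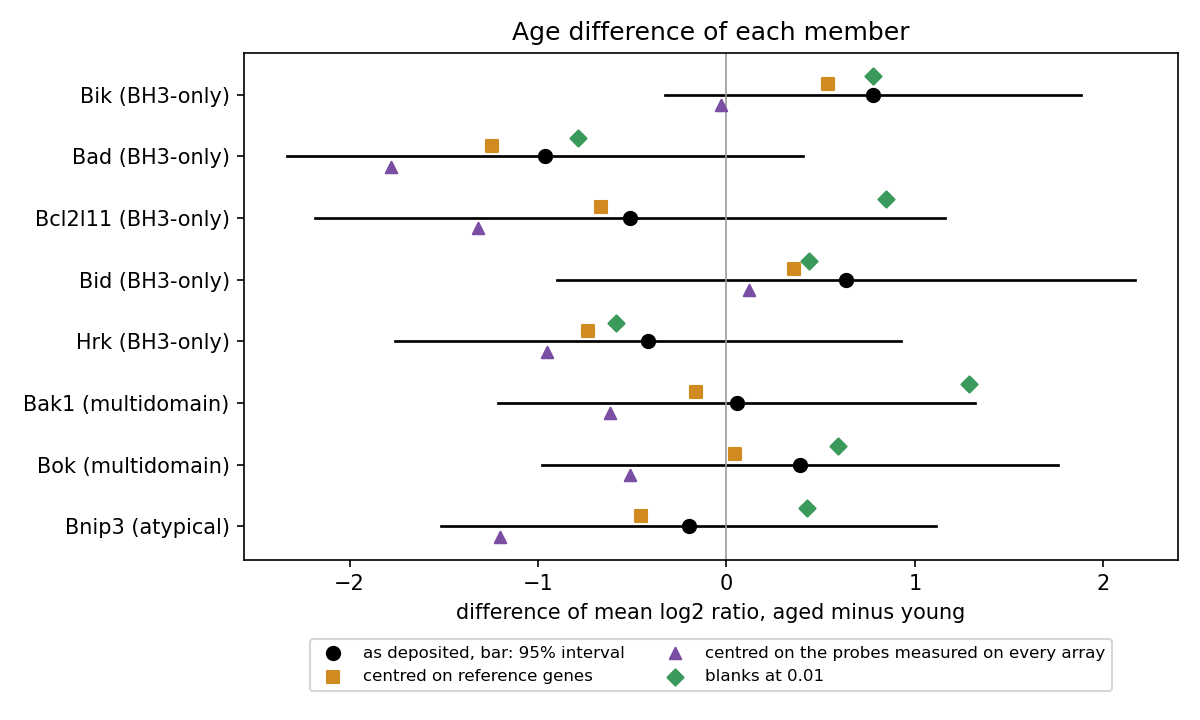
Difference of mean log2 ratio, aged minus young, for each member, with the ratios as deposited (black, bar for the 95% interval by limma) and under other settings (coloured markers, no interval shown). Each black interval includes 0, and the coloured markers of Bik, Bak1, Bok, Bcl2l11 and Bnip3 lie on both sides of 0 or next to it.

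Bik was then set against the level of its array, since it is 1 of the 15 probes measured everywhere. Both the level of the other 14 probes and the distance of Bik from them were examined after the values had been seen. The p-values given here for them are unadjusted. The other 14 had mean log2 ratios of -0.33 ± 0.35 on aged and -1.13 ± 0.84 on young arrays (SD, n = 6 and 7), a difference of 0.80 (95% interval -0.01 to 1.62, exact permutation p = 0.047, two-sided), close to the 0.78 of Bik itself. With 1 array left out that p was 0.053 to 0.093 in 9 of 13 cases (aged replicates 2 to 6 and young replicates 1 to 4) and 0.0065 to 0.048 without the others. Without young replicates 1 and 2 together, the difference of the 14 probes was 0.38 (exact permutation p = 0.16). Relative to these 14 probes Bik stood 1.06 ± 0.49 higher on the log2 scale on aged and 1.09 ± 0.35 higher on young arrays. The difference of -0.03 had a 95% interval of -0.54 to 0.49 (exact permutation p = 0.89). It was between -0.11 and 0.14 with any 1 array left out. Thus the Bik difference was about as large as that of the other probes, and the part of the array level in it was not tested. Aged replicate 2 had the smallest distance, 0.20, and young replicate 5 the largest, 1.49.

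Ratios of 2 genes within an array do not contain beta-actin, and 3 were compared after the values had been seen. The log2 ratio of Bik to the guardian Bcl2 was 0.05 ± 0.37 on aged and 0.44 ± 0.83 on young arrays (SD, n = 6 and 7), a difference of -0.38 (95% interval -1.19 to 0.43, exact permutation p = 0.33). The highest ratios were those of young replicates 1 and 2 (2.08 and 3.38 on the linear scale), and without these arrays the log2 difference was 0.005. Bak1 to Bcl2 gave a difference of -0.75 (95% interval -2.65 to 1.16, exact permutation p = 0.41, n = 6 and 5). Bak1 to Bik gave -0.58 (95% interval -2.30 to 1.14, exact permutation p = 0.46, n = 6 and 5). With 1 array left out, Bak1 to Bcl2 ran from -1.17 (young replicate 6) to -0.29 (young replicate 1), and Bak1 to Bik from -0.95 (aged replicate 2) to -0.17 (aged replicate 5). Adjusted over these 3 and the comparison of Bik with the 14 probes, each of the 3 ratios had a p of 0.61. Within arrays Bak1 varied against Bik from a ratio of 0.030 on aged replicate 5 to 0.455 on aged replicate 2, both from the same age group.

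**Figure D4:**
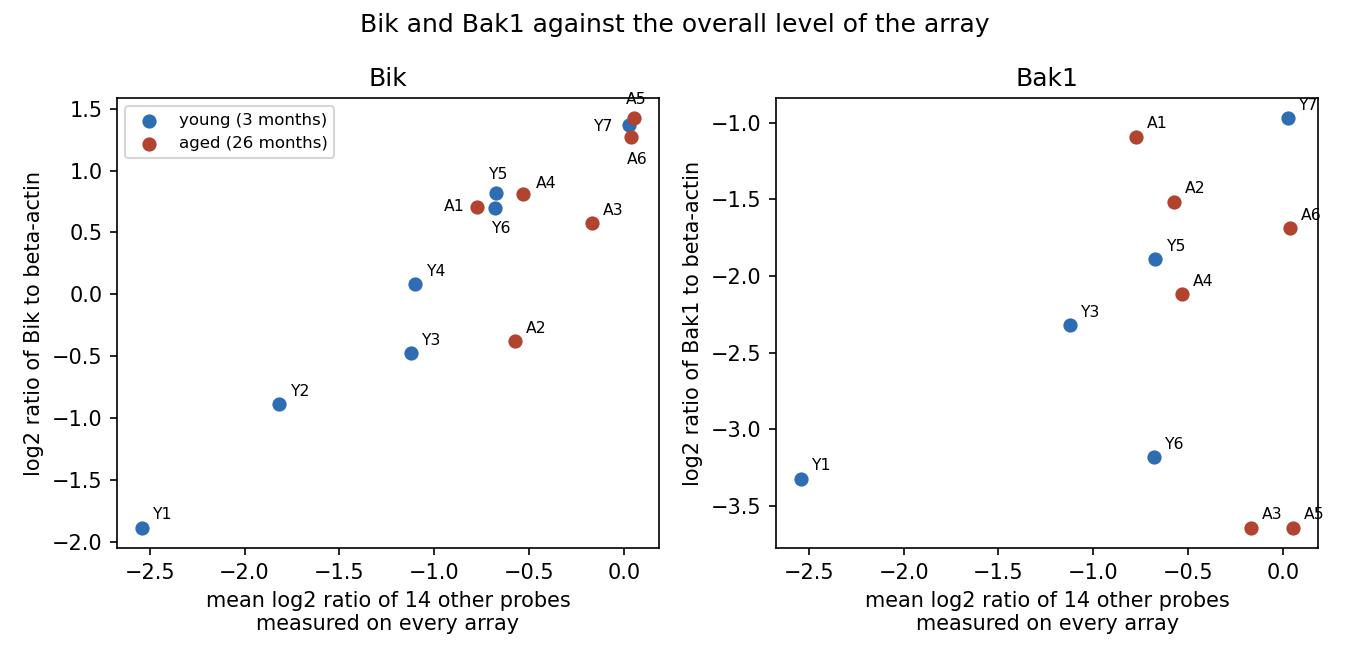
Log2 ratio of Bik (left) and Bak1 (right) to beta-actin on each array, against the mean log2 ratio of the 14 other gene probes measured on every array (Y young, A aged, with the replicate number). Bik lies 0.20 to 1.49 above the 14 probes on the 13 arrays, whereas Bak1 has its lowest values on aged replicates 3 and 5, whose mean over the 14 probes (-0.17 and 0.05) is not low.

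The partners of these genes in the mitochondrial pathway, 9 of which were on the array, gave 0 of 8 tested genes past the threshold, against 1.43% of the 70 probes. Among 5 tested guardians, 4 stood higher and 1 lower in the aged group by mean log2 ratio, with a median difference of 0.26. Of the 70 probes tested 57.1% stood higher, with a median difference of 0.06. The guardians were not counted under the other scalings. Bcl2 had 1.16 (95% interval -0.14 to 2.45), Mcl1, a short-lived guardian that holds Bak1 in check, had 0.65 (-0.55 to 1.85), Bcl2a1d had 0.26, Bcl2l2 had 0.09 and Bcl2l10 had -0.48. Bcl2l1, the main partner of Bad, had values on 3 aged and 2 young arrays and was not tested. Downstream, the apoptosome scaffold Apaf1 had -0.25, the executioner Casp6 had 0.86 and the initiator Casp9 had 1.61 (unadjusted p = 0.0065, adjusted p = 0.23 by limma). Bax and the p53 gene were not analysed here.

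Finally, the gene probes with the most alike profiles were sought for Bad, Bak1 and Bik. The measure was the root-mean-square difference of log2 ratios over shared arrays, at least 8, after each probe's own mean was removed. All profiles share the beta-actin denominator of their arrays. Nearest to Bik, among 61 probes, were the unnamed probe 78 (0.27, 13 arrays), Casp2 (0.28, 13 arrays) and Mcl1 (0.40, 11 arrays), against a median of 1.10. Bik's own profile deviated from its mean by 0.94 over the 13 arrays, so these 3, the nearest of the 61, tracked it more closely than a flat profile would. However, the log2 distance of Bik from the 14 other probes measured everywhere had an SD of only 0.49 on aged and 0.35 on young arrays. Likeness to Bik beyond this shared array level was not tested. For Bak1 and Bad, not all of the nearest probes were closer than a flat profile. Nearest to Bak1, among 43 probes, were Bfar (0.80, 9 arrays), Tnfrsf11a (0.96, 11 arrays) and Tnfrsf21 (1.03, 11 arrays), but a flat profile would lie at 0.85 over the 9 and at 0.95 over the 11 arrays, so Bfar was little closer and the other two no closer than that. Nearest to Bad, among 28 probes, were Casp8 (0.86, 9 arrays), Traf1 (1.01, 9 arrays) and Traf4 (1.11, 9 arrays), where a flat profile would lie at 0.98, nearer than Traf1 and Traf4. Bad, Bak1 and Bik were not near one another. Bik was the 17th of the 28 probes compared with Bad (1.51) and the 15th of the 43 compared with Bak1 (1.17), and Bad was the 34th compared with Bak1 (1.62).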

How the data were processed

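The deposited table gives linear ratios, which the authors had made relative to beta-actin: the mean of the 2 Actb spots was 1 on each of 13 arrays. For the scanner, the background correction and the software, the step is not given in the sources used. Probe names came from the platform annotation (91 probes named, 9 not). The 8 members' symbols were all rat symbols, but 0 of their gene IDs and 0 of their accessions occurred in the rat gene table, so the organism of the probes is not settled.

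Log2 ratios were fitted with limma 3.58.1 (two-sided, lmFit then eBayes, under R 4.3.3), with age as the sole factor, without pseudocount or further scaling. Reference spots stayed out, and at least 3 values in each group left 70 probes, over which p-values were adjusted by Benjamini-Hochberg (threshold 0.05). Permutation tests were exact and two-sided over splits of the arrays. The fit was tested on simulated data with a planted log2 difference of 3, larger than that of any member. That simulation does not show whether differences of the size seen in the members would be found. Blanks stayed missing.

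The members, their lists and the tests were chosen with earlier results of these data known. Named genes were the members, their listed partners, the reference genes and the 3 most alike probes of Bad, Bak1 and Bik, and Tnf, Cd40 and the Blk probe were named after their values were seen. Alternatives covered scaling, blanks, a minimum of 2 values, linear ratios, a filter at the 25th percentile, a pseudocount of 0.02, leaving out arrays and a replicate block. Nothing in the labels says that arrays came from separate animals, so p-values reflect array-to-array spread alone, possibly technical. The number of arrays and the rounding to 0.01 limit the precision.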

Additional observations from a re-analysis of the deposited data

How the results depend on the processing

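In the exact permutation test members other than Bik had little room to pass. No member passed the threshold under any alternative that gave it a value. Hrk, Bid and Bad kept their direction in all of theirs, but for Bid leaving out 1 array could not test this. Each such fit with a value for Bid left out an array where Bid was blank, so its difference stayed at 0.64. Hrk had no value without aged replicate 1, 4 or 6, the aged arrays that measured it. Likewise Bcl2l11 had none without young replicate 1, 4 or 7, the young arrays that measured it. The count of probes past the threshold was 1 as reported. It was 0 with reference centring, with centring on the 15 probes, with blanks at 0.01, with the replicate block and by the exact permutation test, 2 on linear ratios (Tnf and Lta), and 0 to 1 with 1 array left out. Directions turned as follows. Centring on the 15 probes gave Bik -0.027, Bak1 -0.62 and Bok -0.51, and reference centring gave Bak1 -0.16. Blanks at 0.01 gave Bcl2l11 0.85 and Bnip3 0.43. Without young replicates 1 and 2, Bak1 had -0.19 and the ratio of Bik to Bcl2 differed by 0.0048. With blanks ranked lowest, the percentile differences of Bcl2l11, Bak1 and Bnip3 were 10.6, 12.3 and 4.46 points. With 1 array left out, Bak1 ran from -0.19 to 0.40, Bnip3 from -0.48 to 0.10, and Bik relative to the 14 probes from -0.11 to 0.14. The share of arrays with a value ran from -16.7 to 8.57 points for Bad and from -2.86 to 17.1 for Bid.

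The number of BH3-only members higher in aged arteries was 1 of 5 with centring on the 15 probes and 3 of 5 with blanks at 0.01. It was 1 of 3 with the percentile filter, the block, its 12 arrays unblocked, and without young replicates 1 and 2. Bid was not tested in these fits. With 1 array left out the number was 1 to 2, of 3 to 5 tested. The median over BH3-only members was 0.44 with blanks at 0.01 and -0.60 to 0.09 with 1 array left out. For multidomain members the number was 1 with reference centring, 0 with centring on the 15 probes (median -0.56) and 0 without young replicates 1 and 2 (1 tested), and 1 to 2 with 1 array left out (median 0.02 to 0.60). In several of these fits fewer members had enough values, and the percentile filter removed Bid, Hrk and Bnip3 for their low mean level.

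Whether same-numbered arrays are paired is not stated in the labels. Over the 15 probes, 4 of 6 pairs had deviations correlated above 0.1 (range -0.20 to 0.67), short of the 6 needed to treat the numbers as a pairing, and 3 of 6 aged arrays matched their own number best, a hint from the data only. The block, over 12 arrays, gave 0 calls and turned Bnip3 to 0.14. The same arrays without a block gave 1 call and -0.20. Dim members are limited by the 0.01 rounding step.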

Other observations

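The rat gene table lists Blk as an older synonym of Bik, and the array carries a further probe named Blk, the symbol also of a B-lymphoid kinase. This probe, singled out after its values were seen, had ratios of 0.147 ± 0.158 on 6 aged and 0.223 ± 0.206 on 3 young arrays (SD), with a log2 difference of -0.72 (adjusted p = 0.86 by limma). It had a value on 9 arrays, where the probe named Bik had one on 13.

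The spread of the members within age groups covered most of that of the array. As pooled SD of log2 ratios, Bid had 0.46, the 3rd smallest of the 70 tested probes, and Hrk 0.58, the 8th smallest, both from few values near the rounding step. Bcl2l11 had 1.31, the 61st. Bik (0.94), Bad (0.97) and Bak1 (1.05) were near the median of 1.02. Bad had a log2 SD of 1.46 on 4 aged and 0.26 on 5 young arrays, while Bik had 0.64 on 6 aged and 1.13 on 7 young arrays. These differences of spread were not tested. Of the 16 groups of values (8 members at 2 ages), 12 had the 4 values needed for a test of outliers, which found 0. The young Bcl2l11 values, with 0.35 against 0.04 and 0.05, were among the 4 groups too small for it.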
